A study of Homo sapiens with 6 samples.

Results

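The list analysed here holds the genomic places where DNA breaks were tagged in cells that received the guide RNA SG2. All 535 rows of the SG2 list were used, out of 1626 rows in the lists of 6 guides (SG1, SG2, SG3, SG4, SG7 and SG8). The row with the highest count inside PKLR, the intended target, was taken as the on-target site, and the other 534 rows were taken as off-target sites. PKLR is the gene of the pyruvate kinase isoforms made in liver and in erythrocytes. Every library came from HEK293, a human embryonic kidney cell line, carrying a stable Cas9 transgene, and the guides differed only in the RNA complex that was nucleofected together with a double-stranded DNA tag. Each guide had 1 library. No library without a guide was analysed here, so places that are tagged without any guide could not be set aside, and no difference below has a replicate check.

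Cas9 is a nuclease that a guide RNA directs to matching DNA. It needs a short neighbouring motif, the PAM, which for the common enzyme reads NGG, and it cuts both strands a few bases before that motif. Places that match the guide imperfectly can be cut too, and mismatches far from the PAM are in general tolerated better than those beside it. In GUIDE-seq the tag is captured in the break during repair, and each tagged place is then found by sequencing outward from the tag. The count of a place is therefore a measure of captured tags. It is not the share of cells that were edited there.

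The SG2 on-target site was listed at position 155301506 of chromosome 1 (hg38), inside PKLR (155289293 to 155308654) and 68 bases before 1 of the transcript starts that RefSeq gives for this gene. The labels give no guide sequence. The RefSeq promoter window of PKLR (GRCh38.p14, chr1:155301389-155301688) covers the position, so the DNA at the break can be shown. The line below gives chr1:155301488-155301534 on the minus strand, which is also the strand of PKLR. Capitals mark 20 bases and an NGG motif whose expected break, 3 bases before the motif, falls exactly at the listed position.
PKLR: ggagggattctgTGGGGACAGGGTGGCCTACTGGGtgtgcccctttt
Within 3 bp of the listed position, 3 stretches of 20 bases followed by NGG had their expected break. These are shown because they are the candidates for the sequence that SG2 recognises, with the NGG motif in capitals.
Offset 0, minus strand: tggggacagggtggcctactGGG
Offset 1 bp, minus strand: gtggggacagggtggcctacTGG
Offset -3 bp, plus strand: agaaaaggggcacacccagtAGG
The plus-strand stretch had its expected break at 155301503, which is the listed position of SG4 and lies 3 bp from that of SG2. With both NGG motifs included, it shares 9 base pairs with the stretch at offset 0, on the opposite strand. The stretch at offset 0 is called the PKLR stretch below. Of its 20 bases, 13 are G or C. It is a description of the DNA at the listed break and was not checked against the guide that was used. The sources used here do not say whether listed positions count from 0 or 1, so offsets hold to 1 bp.

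The off-target positions that fall inside a RefSeq promoter window (250 bases before to 50 after a transcript start) allow the same view. There were 7 of them. For each, the PKLR stretch was placed on either strand, without gaps, beside an NGG motif and with the expected break within 3 bp of the listed position. The placing with the most matches over mismatches was kept. The sites are shown because they are the members whose DNA can be read here, with mismatches to the PKLR stretch in capitals and the highest count first.
PKLR, 5335 counts, followed by GGG: tggggacagggtggcctact
VSIG8, 130 counts, followed by TGG: GggTgacagggtggcctacC
PEA15, 32 counts, followed by GGG: cctact
LOC107985814, 32 counts, followed by TGG: AgAggacagggAAgcctGct
C22orf42, 25 counts, followed by AGG: AgAggGACAggGTgGcCacA
AIRIM, 6 counts, followed by AGG: tggAgGGCTggGggcctact
MZT2A, 6 counts, followed by CGG: CggggacGgggCCgcctCct
RGCC, 3 counts, followed by CGG: CCTggGGGCAgGggcctCct

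The site before VSIG8 was the closest of these to PKLR in sequence and the most counted. It was listed at 159862766 on chromosome 1, 109 bases before the VSIG8 start and inside the non-coding gene LOC107985216. It differed from the PKLR stretch at 3 bases, T1G, G4T and T20C, counted from 1 at the 5′ end, and its expected break fell exactly at the listed position. Placed beside an NGG motif there, the candidate at offset 1 bp had 12 mismatches and the plus-strand candidate 13. PEA15 encodes a small cytoplasmic phosphoprotein. Its site, at 160205137, lay 247 bases before the gene start, and the window held only 6 bases of the stretch. All 6 matched, next to a GGG motif and at offset 0.

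LOC107985814 and MZT2A, a gene of the microtubule-nucleating complex, each had 5 mismatches, of which 3 lay in bases 11 to 20, the side of the NGG motif. They had 32 and 6 counts. AIRIM had 6 mismatches, of which 1 lay in bases 11 to 20, and its expected break lay 2 bp from the listed position. RGCC, a regulator of the cell cycle, had 10 mismatches and 3 counts. C22orf42 had 11 mismatches in the ungapped placing, against 6 to the candidate at offset 1 bp and 10 to the plus-strand candidate. It was the only one of the 6 sites with all 20 bases in a window that had fewer mismatches to another candidate than to the PKLR stretch. When 1 base of the PKLR stretch was left unpaired (base 17), C22orf42 had 3 mismatches, with the expected break exactly at its listed position. Its 19 bases are shown because the gap changes the comparison.
C22orf42, base 17 unpaired: GAgggacagggtggccacA
With 1 gap allowed, AIRIM had 4 mismatches and RGCC 7.

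The 6 off-target sites with all 20 bases in a window thus had 3 to 11 mismatches, with a median of 5.5. The same placing was made at 18 off-target sites of SG1 and SG4 inside promoter windows. They had 8 to 15 mismatches to the PKLR stretch, with a median of 12.5. The ungapped ranges overlapped through RGCC and C22orf42. With 1 gap the SG2 sites had 2 to 7 mismatches and the sites of SG1 and SG4 had 8 to 13, which did not overlap. A gap and 7 mismatches is a loose match, since 31.3% of all 34943 promoter windows held such a place somewhere. For 1 gap and 3 mismatches or fewer, the level of C22orf42, it was 0.0229%, or 8 windows.

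All promoter windows were also searched, on both strands, for the PKLR stretch followed by NGG. Apart from PKLR itself, no place had 0, 1 or 2 mismatches. There was 1 place with 3 mismatches, the VSIG8 site, and it was listed. The 2 places with 4 mismatches, before HPCAL4 and NDRG2, were not in the SG2 list. Of 17 places with 5 mismatches, 2 were listed, and of 115 with 6 mismatches, 1 was. Windows with up to 5 mismatches made up 0.0687% of all windows. The unlisted places with 4 mismatches are shown, with mismatches in capitals, beside the listed one with 3.
VSIG8, listed, 3 mismatches: GggTgacagggtggcctacC
HPCAL4, not listed, 4 mismatches: tggggacCgggtggccGGcG
NDRG2, not listed, 4 mismatches: tggggaGaggAtggccAacA
Both unlisted places had 3 mismatches in bases 11 to 20, against 1 for VSIG8. LOC107985814 and MZT2A also had 3 there and were listed, so places with 3 there were found both in the list and outside it. No place with 4 or 5 mismatches in all had at most 1 there. Among the places with 6 mismatches, 2 had at most 1 in bases 11 to 20, and AIRIM, the listed one, was among these. The list holds only places above a minimum count, so an absent place has no bound.

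**Figure D1:**
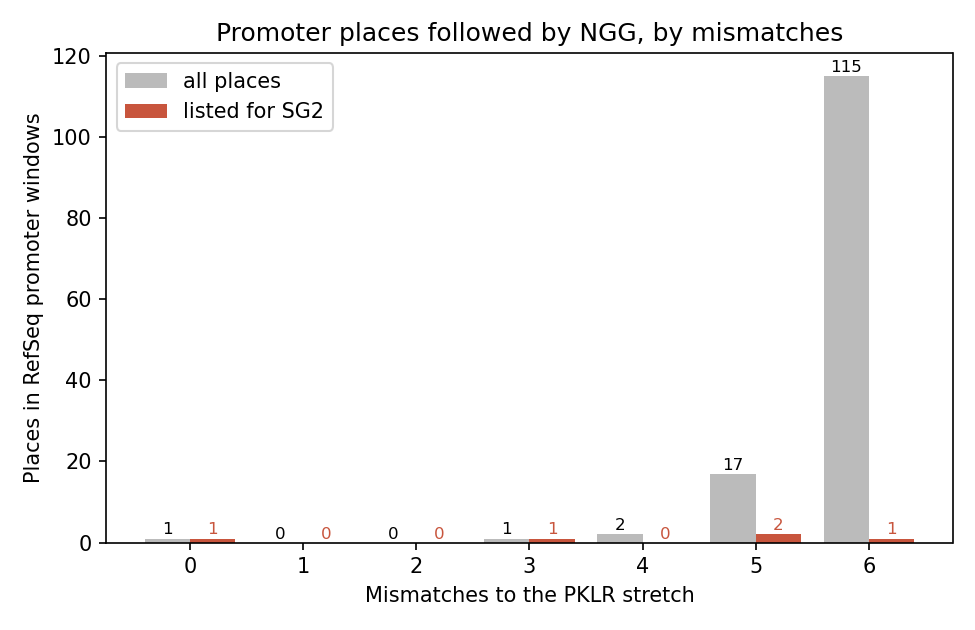
Places in RefSeq promoter windows that are followed by NGG (y axis, number of places), by their mismatches to the PKLR stretch (x axis). Grey bars show all places and red bars those listed for SG2: 1 of 1 at 3 mismatches, 0 of 2 at 4, 2 of 17 at 5 and 1 of 115 at 6.

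SG2 counts fell steeply over the list. The list held 76822 counts, of which 5335 were at PKLR (6.94%, exact Clopper-Pearson 95% interval 6.77 to 7.13%) and 71487 at off-target sites. These intervals cover counting error only. The off-target sites ran from 2 to 5515 counts, with a median of 16 and quartiles of 7 and 59.5. There were 17 sites with at least 1000 counts, 90 with at least 100 and 351 with at least 10, whereas 42 sites had only 2 or 3 counts. Just 2 sites held 10% of the off-target counts, 5 held 25%, 13 held 50%, 41 held 75% and 118 held 90%.

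Relative to PKLR, 6 sites reached 50% of its count, 14 reached 25%, 28 reached 10%, 46 reached 5% and 142 reached 1%. The 28 sites at 10% or more held 67.5% of the off-target counts, and the 142 at 1% or more held 92.1%. The boundaries of these classes are not gaps in the list. The last site inside the 10% limit had 536 counts (chromosome 9, 113602712) and the next had 507 counts, in the long non-coding RNA gene LOC105372383. At the 1% limit the neighbours had 54 and 53 counts. At the 50% limit DYRK1A had 3054 counts and the following site 2489, a wider step.

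**Figure D2:**
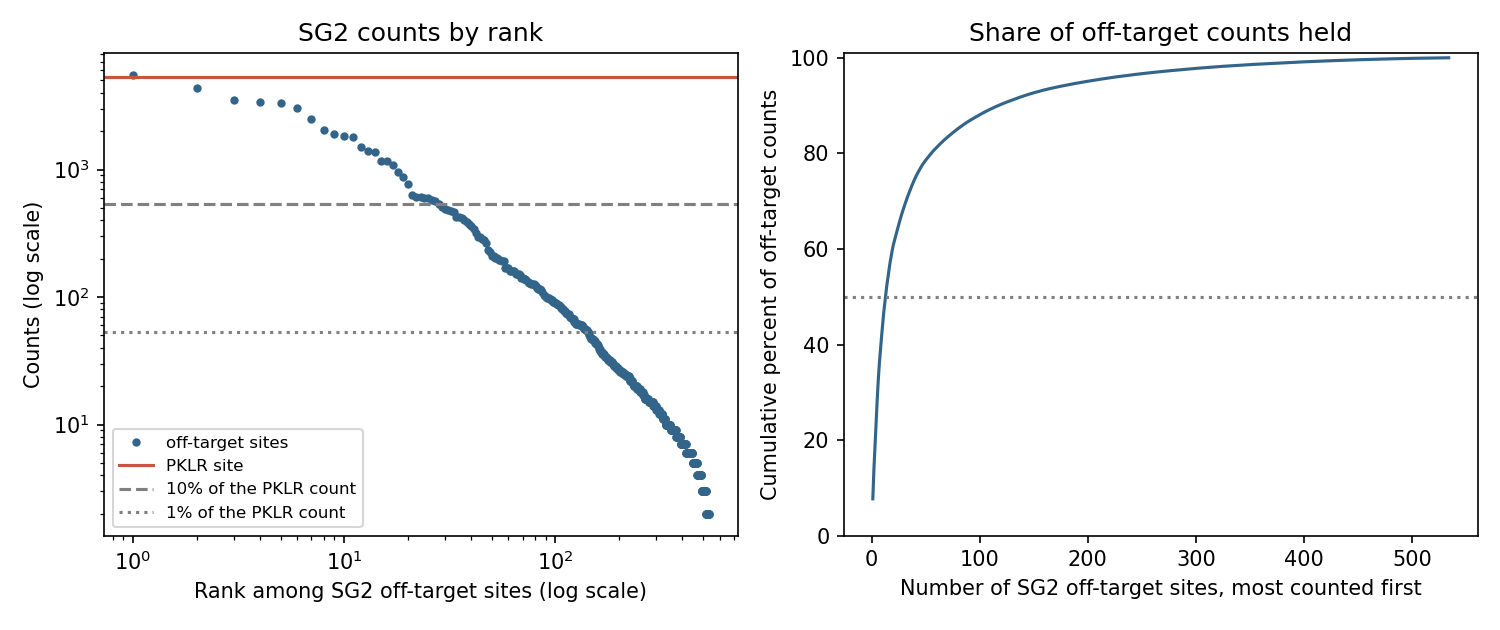
Left, counts of the 534 SG2 off-target sites (y axis, log scale) by rank (x axis, log scale), with the PKLR count and 10% and 1% of it as horizontal lines. Right, cumulative percent of off-target counts (y axis) over the number of sites taken from the most counted (x axis): 13 sites reach 50% and 118 reach 90%.

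The leading off-target sites inside protein-coding genes lay in genes of several kinds. At GUCY2F, a retinal guanylate cyclase gene on chromosome X (109468691), the count was 5515, against 5335 at PKLR, and its ratio to PKLR had an interval that includes 100% (99.5 to 107%). MYO18A, an unconventional myosin gene, had 4359 counts on chromosome 17 (29118022). MYO5B, another unconventional myosin gene, whose motor protein moves recycling endosomes, had 3327 counts on chromosome 18 (49840992). FOXN3, a forkhead transcription factor gene, had 3384 counts on chromosome 14 (89294181). DYRK1A, a kinase gene of the Down syndrome region, had 3054 counts on chromosome 21 (37387159), which is 57.2% of the PKLR count (54.7 to 59.9%). The intervals of FOXN3 (60.7 to 66.2%) and MYO5B (59.7 to 65.1%) overlapped, so counting error alone does not order them.

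Below these, DRP2, a relative of dystrophin found in Schwann cells, had 2042 counts (chromosome X, 101244206, 38.3%). SEPTIN6, a gene of septin filaments, had 1889 counts (chromosome X, 119682713, 35.4%). APOL5, of the apolipoprotein L family, had 1845 counts (chromosome 22, 35729355, 34.6%), and PRKAR1B, a regulatory subunit of protein kinase A, had 1788 (chromosome 7, 666674, 33.5%). The intervals of SEPTIN6, APOL5 and PRKAR1B overlapped with each other. Next came TRAF5, an adapter of tumour necrosis factor receptors, with 957 counts (chromosome 1, 211336402, 17.9%), and DTNA, which encodes dystrobrevin, with 872 (chromosome 18, 34521789, 16.3%). FREM1, a basement membrane gene, had 772 counts (chromosome 9, 14841591, 14.5%). MYRF, a transcription factor gene of myelination, had 630 counts, and BEX4 had 610. SLC16A1 had 599 counts (chromosome 1, 112951312, 11.2%). It encodes a carrier of lactate and pyruvate, the product of the PKLR enzyme.

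Several of the most counted sites had no gene at their position. The highest, at 40349348 on chromosome 15, had 3536 counts (66.3% of PKLR, 63.5 to 69.2%) and lay 1685 bp from PHGR1. The site at 114424061 on chromosome 4 had 2489 counts (46.7%) and lay 174341 bp from the nearest protein-coding gene, UGT8, an enzyme gene of myelin lipids. The site at 36582825 on chromosome 21 had 1492 counts and lay 6256 bp from CLDN14, a tight junction gene. The site at 31573492 on chromosome 19 had 1374 counts and lay 222615 bp from TSHZ3. Sites at 134147441 on chromosome 3 (1162 counts, 9692 bp from RYK) and 19579556 on chromosome 22 (1082 counts, 54219 bp from CLDN5) followed. Within long non-coding RNA genes, LOC107986764 had 1391 counts and CFAP20DC-DT 1171. Of the 28 sites at 10% or more of PKLR, 16 lay in protein-coding genes, 2 in other genes and 10 outside annotated genes.

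Over the whole list, protein-coding genes held 285 off-target sites, other annotated genes 60 and sequence outside genes 188, and 1 site was mitochondrial. Of the other genes, 55 sites lay in long non-coding RNA genes. Sites in protein-coding genes had a median of 14 counts (quartiles 6 and 47), those in other genes 15 (7.75 and 64) and those outside genes 22 (8.75 and 64.8). The ranges overlapped, and the lowest site had 2 counts in all 3 classes. Protein-coding genes held 60.9% of off-target counts, against 53.4% of off-target sites, because GUCY2F, MYO18A, FOXN3, MYO5B and DYRK1A are among them. On chromosomes 1 to 22 and X, 41.6% of the sequence lies in protein-coding genes and 55.2% in any annotated gene. Of the 533 off-target sites there, 53.5% (49.1 to 57.8%) lay in protein-coding genes and 64.7% in any annotated gene. The share in protein-coding genes was 50% with at least 10 counts per site and 51.1% with at least 100. Both lie inside that interval and above the share of the sequence. The reason for these higher shares was not tested. No site fell in any of 1562 annotated miRNA hairpins, whose share of the sequence was not computed, so this absence says little.

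**Figure D3:**
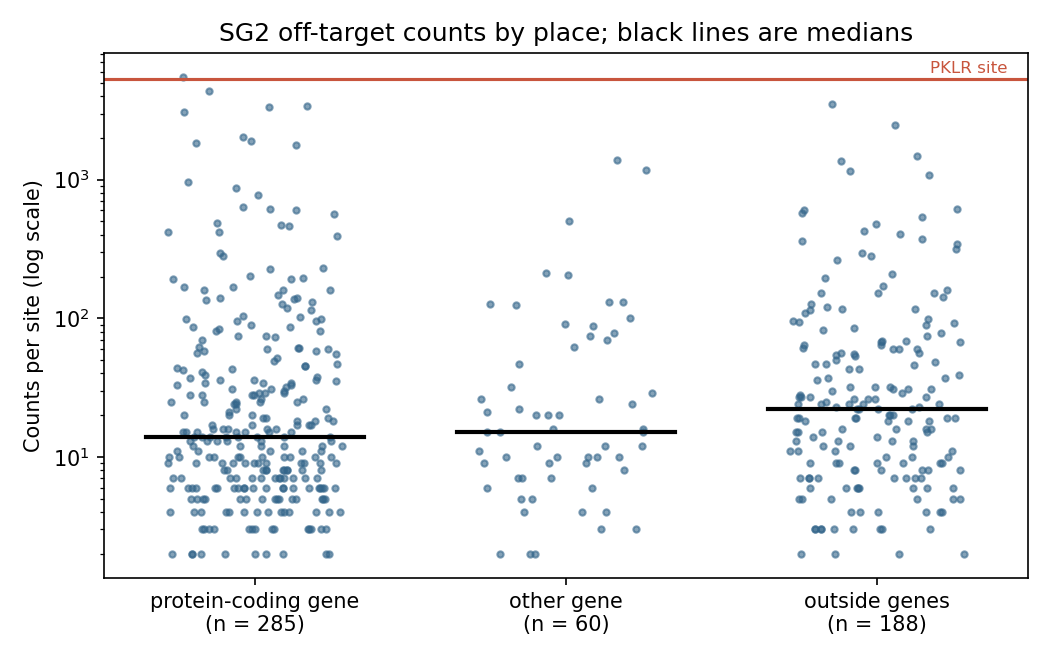
Counts of each SG2 off-target site (y axis, log scale) by its place (x axis: inside a protein-coding gene, inside another annotated gene, or outside genes). Points are sites, black lines are medians (14, 15 and 22 counts), and the red line is the PKLR site at 5335 counts.

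The genes that held SG2 sites were longer than most. Their median length was 115317 bp, against 24115 bp for all 20037 protein-coding genes. A longer gene offers more sequence, and beside the summed length of genes the sites stood towards shorter ones. Genes up to 20 kb held 12.6% of the sites in protein-coding genes and make up 5.79% of summed gene length. Genes over 500 kb held 11.2% of the sites and make up 20.3% of the length. Genes of 100 to 500 kb held 43.9% of the sites, near their 46.2% of the length. The hit genes ranged from BEX4 (2155 bp) to CNTNAP2 (2304198 bp), a neuronal adhesion gene that held 4 counts. No test of this pattern was made, since sites in 1 library are not replicates.

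**Figure D4:**
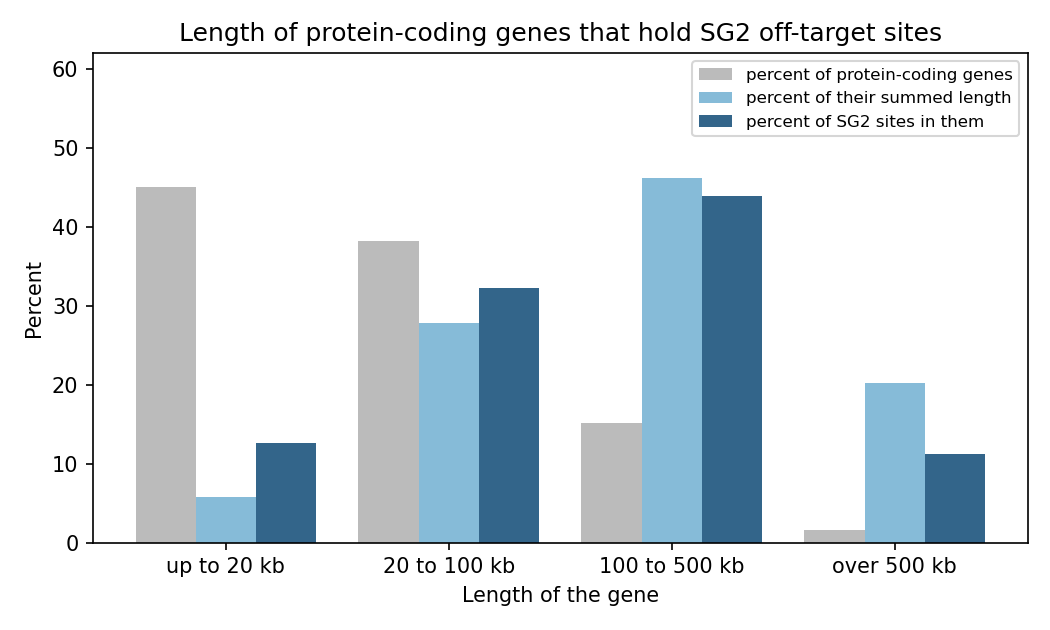
Percent (y axis) of all protein-coding genes, of their summed length and of the SG2 off-target sites inside them, by length of the gene (x axis). Genes up to 20 kb hold 12.6% of the sites with 5.79% of the length, and genes over 500 kb hold 11.2% with 20.3%.

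Sites were also set against the transcript starts of protein-coding genes. RefSeq promoter windows gave starts for 15843 of 20037 protein-coding genes and none for chromosome 8, so 516 of the off-target sites had a distance. Within 1 kb of a start lay 26 sites, or 5.04% (exact interval 3.32 to 7.30%), where 1.26% of the sequence lies that close. Within 10 kb lay 111 sites, or 21.5% (18.0 to 25.3%), against 10.7% of the sequence. The shares stood above the sequence at every distance measured. The median of the 26 sites was 17 counts, against 16 for all off-target sites, and among them only BEX4 (610 counts, 973 bp after its start) and VSIG8 (130 counts) exceeded 100. Base composition also differs near gene starts, and its part in these shares was not tested.

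Among the sites near a start, ZNF410, a zinc finger factor gene, had 86 counts 537 bp after its start. ADAMTSL2, a gene of the extracellular matrix, had 75 counts 216 bp after its start. SEC16A, a gene of vesicle export from the endoplasmic reticulum, had 47 counts 387 bp before 1 of its starts. ARHGAP25 had 36 counts 322 bp before 1 of its starts. Both sites lay inside the gene, that of ARHGAP25 at 55.1% of its length. All these distances are to the nearest transcript start, which need not be the first of the gene. CNDP2, a dipeptidase gene, had 25 counts 53 bp after its start, and TLE3, a transcriptional corepressor gene, had 22 counts 280 bp after its start. MSH6, a DNA mismatch repair gene, had 3 counts 226 bp after its start. Within genes, sites were spread from start to end: of 247 sites in genes of known strand, 52 lay in the first 20% of the gene, 44, 46 and 39 in the next 3 parts of equal length and 66 in the last 20%. The median lay at 50.4% of the gene.

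SG2 sites occurred on chromosomes 1 to 22 and X. None was listed on Y for any of the 6 guides, and whether these cells carry a Y chromosome was not examined here. The mean density was 17.6 sites per 100 Mb. Chromosome 19 had the highest density with 49.5 sites per 100 Mb, followed by chromosome 17 with 42.1 and chromosome 22 with 39.4. Chromosome 13 had the lowest with 6.13. Density went with the density of protein-coding genes over the 23 chromosomes (Pearson's r = 0.80, Spearman's rank correlation = 0.61). This is a description over chromosomes that share 1 library and differ in base composition. The same values were 0.85 and 0.56 for SG1 and 0.71 and 0.60 for SG4, so the relation was not a property of SG2 alone.

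Chromosomes 9, 18 and 22 had more sites than chromosomes of like gene density. Chromosome 22, with 888 protein-coding genes per 100 Mb, had 39.4 sites per 100 Mb, against 14.5 on chromosome 1 (828 genes) and 17.1 on chromosome 20 (836 genes). Chromosome 9 had 38 sites (27.5 per 100 Mb), led by FREM1, and 15 of them reached 1% of PKLR. Chromosome 18, with few genes, had 20 sites (24.9 per 100 Mb), led by MYO5B and DTNA. In SG1 and SG4 the densities on chromosome 9 were 18.8 and 15.2 per 100 Mb, on chromosome 18 they were 17.4 and 18.7, and on chromosome 22 they were 21.7 and 33.5. In those lists chromosome 1 had 14.1 and 24.1 and chromosome 20 had 7.78 and 21.8, each below chromosome 22. Chromosome 4 (405 genes) had 10.5 and 6.84, below chromosome 18. The high densities of chromosomes 18 and 22 were thus not particular to SG2. For chromosome 9 the picture was mixed. Chromosome 10 (549 genes) had 19.4 and 13.5, and chromosome 14 (566 genes) had 8.42 and 16.8. Each guide has a single library, and differences between them were not tested. Chromosome X had only 16 sites (10.3 per 100 Mb), yet it held 15.7% of all off-target counts, through GUCY2F, DRP2, SEPTIN6 and BEX4. These 4 were among the 28 sites at 10% or more of PKLR. Also on chromosome X, COL4A6, a basement membrane collagen gene, had 471 counts, and F8, the gene of coagulation factor VIII, had 52.

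**Figure D5:**
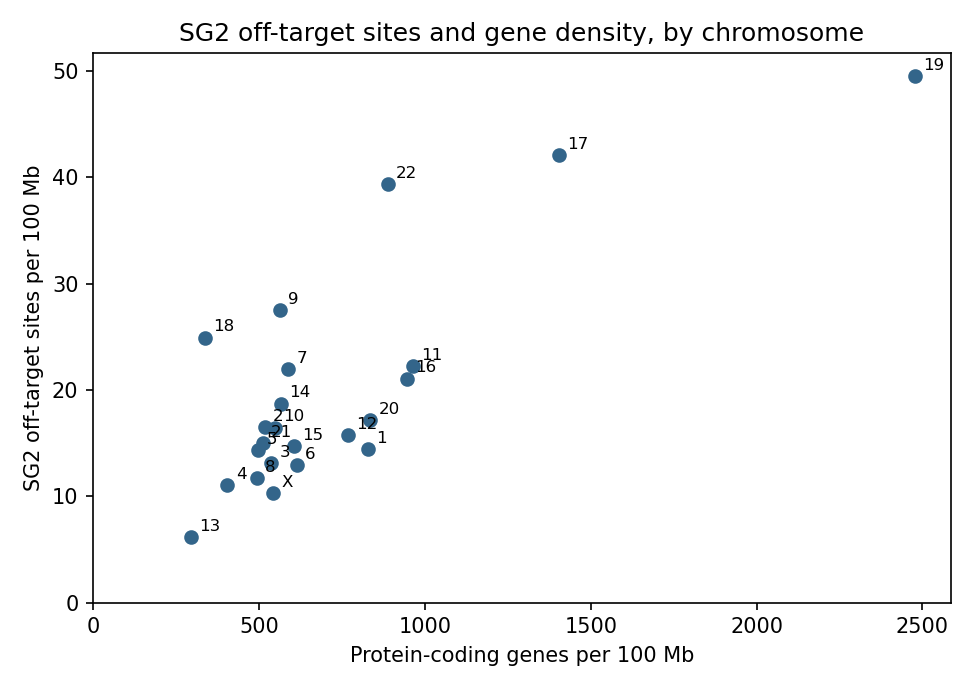
SG2 off-target sites per 100 Mb (y axis) and protein-coding genes per 100 Mb (x axis) on each of 23 chromosomes, labelled by name. Chromosome 19 lies highest at 49.5 sites, chromosome 13 lowest at 6.13, and chromosomes 9, 18 and 22 lie high for their gene density.

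The off-target site nearest to PKLR was in ATP8B2, a phospholipid flippase gene, with 17 counts, 969809 bp from the PKLR position. On the other side the nearest was the VSIG8 site, 4561260 bp away. Of 511 pairs of neighbouring sites on a chromosome, 159 lay within 1 Mb of each other. Close pairs were fewer: 3 lay within 100 bp of each other, 5 within 1 kb and 16 within 10 kb. The closest pair lay 16 bp apart in LOC107987108, with 9 and 3 counts. In NTM, a neuronal adhesion gene, 60 and 3 counts stood 39 bp apart, and in LOC105373024, 2 and 204 counts stood 51 bp apart. Beside the strong MYO5B site, 14 counts were listed 532 bp away. A site with 8 counts lay 578 bp from the 1492 counts at 36582825 on chromosome 21.

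More than 1 site was found in 13 protein-coding genes. MYO5B had 3, with 3327, 32 and 14 counts, and the other 12 had 2 each. MYRF had 630 and 6 counts, 14837 bp apart. ACTN4, a gene of the actin cross-linker alpha-actinin, had 81 and 61 counts, 19292 bp apart, so both sites reached 1% of PKLR. DDX11, a DNA helicase gene, had 13 and 15 counts 1049 bp apart, and C22orf42 had 8 and 25 counts 1578 bp apart. PTPN3, a protein tyrosine phosphatase gene, had 10 and 9 counts. In ACTN4, DDX11, PTPN3 and BABAM2 (5 and 5 counts) the sites of a gene were of like size, whereas in MYO5B, MYRF, CUX2 (70 and 2) and NTM 1 site held most of the counts.

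Genes whose disruption is of concern for an edited cell were looked up in 7 lists of 424 genes. Of all 20037 protein-coding genes, 279 (1.39%) held an SG2 off-target site, and of the list genes 12 did (2.83%). These shares do not allow for gene length. Of the 12 genes, 5 came from the list of common fragile sites, whose genes are long (5 of 47, or 10.6%). The 12 list genes held 13 sites with a median of 17 counts, against 16 for all off-target sites, and 1 of these sites reached 1% of PKLR. That site was in GLI2, a transcription factor gene of hedgehog signalling, with 169 counts (chromosome 2, 120970634), or 3.17% of PKLR (2.70 to 3.69%). The other oncogenes were CDK6, a cell cycle kinase gene, with 41 counts (0.769%, 0.551 to 1.04%) and RAC1, a gene of actin remodelling, with 17. In all, 3 of 83 oncogenes held a site. Of 63 tumour suppressor genes, 1 did: FBXW7, a ubiquitin ligase subunit gene, with 21 counts. Of 83 DNA repair genes, OGG1, which removes oxidised guanine, had 12 counts and MSH6 had 3.

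Genes of red cells, haem and iron (72 genes) and of blood stem cells and lineages (48 genes) held no listed SG2 site. These 2 lists make up only 0.212% and 0.399% of summed protein-coding length, so the absence says little about these genes. Of 49 genes of glycolysis and its regulation, FBP2, a fructose bisphosphatase of muscle, had 6 counts. Of 47 genes in regions known as common fragile sites, 5 held 6 sites. They were PARD3B (39 counts), MACROD2 (38), TBC1D22A (31 and 10), KCNMA1 (5) and CNTNAP2 (4). These are long genes that make up 4.15% of summed protein-coding length, and they held 2.11% of the SG2 sites in protein-coding genes.

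Gene families grouped by symbol were also looked up. Of 20 families, 17 held at least 1 site. These families include those of GUCY2F, FOXN3, MYO18A and MYO5B, which are among the most counted sites. No share for other families was computed, so this number says little. Of 25 unconventional myosin genes (symbols that start with MYO and a digit), MYO18A and MYO5B held 4 sites. MYH9, a conventional non-muscle myosin gene outside that family and picked with its value in view, had 5 counts. Of 398 solute carrier genes, 7 did (1.76%), with SLC16A1 highest at 599 counts and the others at 3 to 34. COL4A6 led 3 of 44 collagen genes, and SEMA5B, a guidance gene of growing axons, had 421 counts among 29 semaphorin and plexin genes. None of 392 olfactory receptor genes and none of 77 TRIM genes held a listed site, and 3 of 566 zinc finger genes did (0.530%). Genes in these families differ in length. Olfactory receptor genes make up 0.233% of summed protein-coding length and TRIM genes 0.192%, so their lack of sites says little.

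Only 5 SG2 off-target sites were also listed for another guide, 3 for SG1 (0.562% of SG2 sites, 0.670% of SG1 sites) and 4 for SG4 (0.749% and 0.722%). SG3, SG7 and SG8 listed none of them, but their lists held only 49, 7 and 28 off-target sites. At shares like those of SG1 and SG4, lists this short could show none. For 2 of the 5, nearly all counts were in SG2: beside the 5515 at GUCY2F, SG4 listed 3, and beside the 3536 at the chromosome 15 site, SG1 listed 10. For the other 3 most counts were in SG4. At 69570746 on chromosome 11, SG2 listed 6 counts, SG1 4 and SG4 1409. FXYD7, a regulator gene of the sodium pump, had 3 counts for SG2, against 6 for SG1 and 2831 over 2 sites for SG4. At 141649251 on chromosome 8, SG2 listed 2 counts and SG4 268. Whether such low counts came from the guide or passed between libraries was not tested.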

How the data were processed

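GUIDE-seq lists of 6 libraries, 1 per guide, were used, and SG2 was described in depth. Per the file headers each row gives a site name and a whole-number count, deposited by the authors without normalization, and a ratio. For SG2 the deposited ratio equals the count over the PKLR count within 4.99e-10. The submitters' processing notes name hg38. The sources used here do not give the aligner, the site caller or its minimum, nor whether counts are reads or molecules. The total of the list, 76822 counts, is not the sequencing depth.

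Sites were placed by position between gene starts and ends of RefSeq (GRCh38.p14), without exons. Starts, strands and sequences came from the RefSeq promoter table, which covers 15843 of 20037 protein-coding genes. Sites of different guides were shared when they overlapped after widening each by 50 bp. Shares have exact Clopper-Pearson 95% intervals. No test between guides was made. The sequence search and gene look-up were tested on simulated data. Members, gene lists and the naming rule (the 25 most counted sites, those at class boundaries, in list genes, in genes with several sites, near starts, beside other sites, nearest to PKLR, shared, mitochondrial or with readable DNA) were chosen with earlier results of these data known. Other named sites were picked with their values in view, as was the placing with 1 gap. Alternatives were minimum counts, merging, thinning, leaving out shared sites and other windows. Scripts ran in Python 3.11.15. They used scipy 1.17.1 for intervals, pandas 2.3.3 with numpy 2.4.6 for tables, and matplotlib 3.10.9 for plots.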

Additional observations from a re-analysis of the deposited data

Results flagged for a closer look

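The SG2 list held 1 mitochondrial site, at position 11224 with 16 counts (0.300% of PKLR), outside the chromosomes that entered the gene comparisons. It was singled out because it lies outside these comparisons and above 3 counts, and no library without a guide was analysed here to set it against. The list also held a site with 14 counts at 134927572 on chromosome 5. That site lies in PCBD2 and in MTND4P12, a pseudogene whose name marks a copy of a mitochondrial gene. Whether the mitochondrial counts belong to a separate place was not tested.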

How the results depend on the processing

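Of 43 recomputed values 12 moved, that is beyond the counting interval of a share or by over 1.5 times for a number of sites, and 31 did not. With at least 10 counts per site there were 351 off-target sites, 15 of them within 1 kb of a start. With at least 100 counts there were 90, all at 1% of the PKLR count or more (90 in place of 142), and 2 of them near a start. The PKLR share was then 7.92%, and protein-coding genes held 62.7% of off-target counts. Fewer sites enter these by construction. Without sites listed for another guide, the PKLR share was 7.87% and the top off-target site 81.7% of PKLR, since GUCY2F leaves. Counting any annotated gene gave 64.7% of sites and 68.1% of counts inside genes. Within 5 kb of a start lay 69 sites. Merging sites within 100 bp, thinning to 50% of the total and other sharing windows moved none of their values that far. Sites with 2 or 3 counts carry little weight. No paired analysis was possible because every guide stands alone with 1 library, so none could be left out either.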

Other observations

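Some further SG2 sites, picked with their values in view, lay in genes outside the lists. SMAD3, a signal transducer of transforming growth factor beta, had 419 counts, or 7.85% of PKLR (7.09 to 8.68%). ZC3H3 had 465 counts and SYT14, of the synaptotagmin family, 486. PLK1, a mitotic kinase gene, had 118 counts, or 2.21% of PKLR. PRKCB, a protein kinase C gene, and MSI2, an RNA-binding protein gene, had 161 counts each. PIEZO2, a mechanosensitive channel gene, had 98 counts.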
